A study of Mus musculus with 6 samples.

Results

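Transcripts of 10 genes that supply actin monomers and turn actin filaments over were followed in mouse spleen: Actb, Actg1, Pfn1, Tmsb4x, Tmsb10, Cfl1, Wdr1, Coro1a, Gsn and Lcp1. The genes were listed by symbol, with earlier results of these data known. All 10 were found among the 26452 genes of the deposited table and passed the filter on low counts. RNA came from 10-week-old male mice, 3 Was knockout libraries (KO451, KO452 and KO457; Was -/-, 129S6/SvEvTac-Wastm1Sbs/J, a germline allele carried by every cell type) and 3 wild-type libraries (WT453, WT454 and WT455; strain 129S6/SvEvTac). The labels state no batch and do not say that each library is a separate animal, so p-values measure the spread between these libraries. Was encodes the Wiskott-Aldrich syndrome protein, which activates the Arp2/3 complex to nucleate branched actin filaments in blood cells. The comparison addresses whether the spleen of mice without this activator carries different amounts of the transcripts for the rest of the actin cycle.

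Actin filaments grow by adding ATP-bound monomers at one end and lose ADP-bound monomers after cofilin has severed them. Profilin recharges monomers with ATP and delivers them to growing ends, while beta-thymosins hold a reserve of monomers that cannot polymerize. Coronins, Wdr1 and gelsolin act with or beside cofilin in taking filaments apart, and plastins bundle them. In leukocytes this cycle drives migration, phagocytosis and the immune synapse. Transcription of several actin genes depends on serum response factor, SRF, whose cofactors are held by free actin monomers.

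None of the 10 genes was called different between Was knockout and wild-type spleens in the test over all genes. By limma on the log2 scale, with the spread modelled as a trend of intensity and p-values adjusted by Benjamini-Hochberg, 0 of the 10 passed an adjusted p of 0.05, and 0 had an unadjusted p under 0.05. Over the 22071 genes tested, 0.00906% were called, which is 2 genes, Was and the predicted gene Gm20716 (named here after its values were seen), and 11.0% had an unadjusted p under 0.05. The fitted log2 fold changes lay between -0.50 for Coro1a and 0.39 for Cfl1, with a median of -0.13 over the 10 genes and -0.03 over all tested genes. The authors' deposited table lists 0 of the 10 at an FDR under 0.05, against 3.58% of its genes. Was itself had 508, 407 and 409 normalized counts in knockout libraries, against 4142, 6561 and 6279 in wild-type libraries, a log2 fold change of -3.66 ± 0.25 (SE, limma, adjusted p = 0.0117). That call was lost when any library other than WT453 was left out. The same test called 0 of 9 red cell markers, although their median log2 fold change was 3.11. All 9 had an unadjusted limma p under 0.05, and the authors' deposited table lists 8 of the 9 at an FDR under 0.05. A gene that was not called may therefore still differ.

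Reads assigned to genes ranged from 30661759 to 38402758 per library. WT453 stood apart: it had the highest or the lowest value of the 6 libraries in 57.4% of tested genes, against 45.2% for KO451 and 17.1% to 34.4% for the other 4 libraries. It was the highest or lowest library in 9 of the 10 actin genes. Neutrophil markers (6 of 6 measured, among them S100a8, S100a9 and Ngp) summed to 671572, 404838 and 2036014 normalized counts in KO451, KO452 and KO457, against 2950051 in WT453 and 158540 and 326610 in the other wild-type libraries. Markers of smooth muscle and fibroblasts summed to between 151 and 283 in knockout libraries, and to 3919 in WT453 against 135 and 167 in the other wild-type libraries. Of the 3919 in WT453, Acta2 made up only 123 and Tagln 74, so most of that sum came from other genes of the list. Red cell markers (9 of 9 measured) summed to between 903970 and 2967696 in knockout libraries and between 73161 and 388027 in wild-type libraries. T cell markers (7 of 7 measured) summed to 14645, 27602 and 18392 in KO451, KO452 and KO457, against 16717, 38155 and 35861 in WT453, WT454 and WT455. B cell markers (6 of 6 measured) summed to 46688, 89102 and 51511 in the knockout libraries, against 45137, 141572 and 108632 in the wild-type libraries in the same order. Both sums overlapped between the genotypes through WT453. Red pulp macrophage markers (6 of 6 measured) summed to between 133823 and 209863 in knockout libraries and between 34634 and 116081 in wild-type libraries. All B cell, T cell and red pulp macrophage markers listed for spleen were detected. In RNA from whole spleen, fewer cells of a type and less RNA per cell cannot be told apart. The part of these cell markers in the values of the actin genes was not tested, and fold changes of the 10 genes are given with and without WT453.

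**Figure D1:**
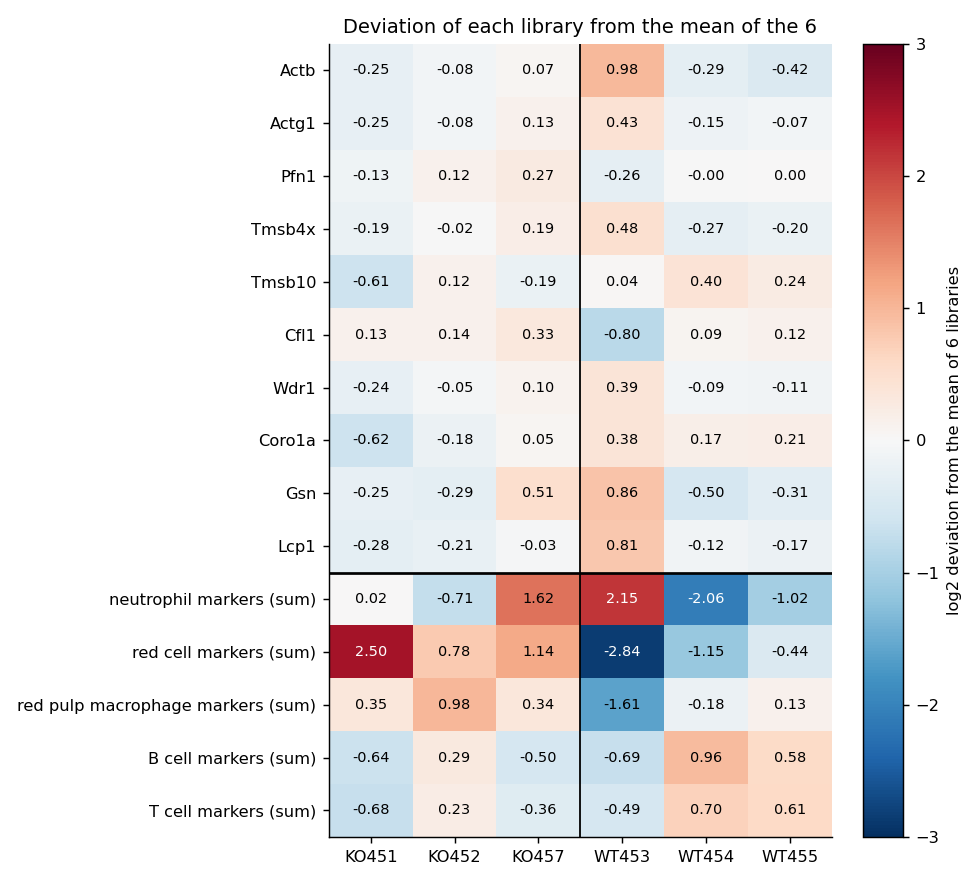
Log2 deviation of each library from the mean over all 6, for normalized counts of the 10 actin genes (above the line) and for summed normalized counts of 5 marker lists (below it), with knockout libraries left of wild-type ones. KO457 deviates by 0.07 for Actb and by 1.62 for the neutrophil markers, and WT453 by 0.98 and 2.15.

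The paralog pairs among the 10 genes differ in how far their reads can be told apart, and their coding sequences are shown for that reason. The coding sequences of Actb and Actg1 are both 1128 bases long and identical at 88.7% of positions, with a longest identical stretch of 62 bases. Reads that fall within such stretches fit both genes, and the labels do not say how the authors' counting treated them. The first 90 bases, which hold the codons of the acidic tip where the proteins differ, are printed with bases that differ between the pair in capitals (GENCODE transcripts, GRCm38; minus strand of chromosomes 5 and 11).
Actb: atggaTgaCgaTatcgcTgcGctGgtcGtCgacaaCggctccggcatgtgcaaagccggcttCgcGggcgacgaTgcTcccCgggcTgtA
Actg1: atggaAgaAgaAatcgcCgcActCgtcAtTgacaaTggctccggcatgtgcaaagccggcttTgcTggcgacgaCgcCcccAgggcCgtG
The beta-thymosins Tmsb4x and Tmsb10 encode peptides so short that the whole coding sequence is shown. Both are 135 bases long and identical at 70.4% of positions, with no identical stretch over 10 bases, so that reads within the coding sequence separate them (minus strand of chromosomes X and 6).
Tmsb4x: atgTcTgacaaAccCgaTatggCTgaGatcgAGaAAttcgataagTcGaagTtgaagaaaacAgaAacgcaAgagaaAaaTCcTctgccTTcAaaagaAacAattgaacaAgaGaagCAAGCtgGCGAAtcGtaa
Tmsb10: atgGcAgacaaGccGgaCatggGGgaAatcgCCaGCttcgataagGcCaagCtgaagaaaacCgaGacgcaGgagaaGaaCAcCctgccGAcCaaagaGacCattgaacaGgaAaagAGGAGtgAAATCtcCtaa

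All 10 genes were abundant. By mean normalized count they ranked between 9th (Actb) and 636th (Gsn) in the table, at or above percentile 97.1 of tested genes. To compare genes, each gene's share of reads (CPM) was divided by the length in kilobases of the principal GENCODE transcript, so the values depend on the transcript chosen. On this per-length scale Tmsb4x was the highest, at 4184 ± 602 in knockout and 4736 ± 1294 in wild-type libraries (SD, n = 3 each), followed by Actb at 2911 ± 372 in knockout and 3964 ± 2194 in wild type. Tmsb10 (1211 ± 368 in knockout, 1793 ± 276 in wild type), Pfn1 (1105 ± 176 in knockout, 1080 ± 138 in wild type), Actg1 (686 ± 99.95 in knockout, 836 ± 164 in wild type) and Coro1a (535 ± 129 in knockout, 821 ± 39.9 in wild type) came next. Cfl1 had a level per length of 425 ± 34.1 in knockout and 374 ± 128 in wild type, Lcp1 of 259 ± 26.0 in knockout and 381 ± 145 in wild type. Wdr1 had one of 111 ± 15.1 in knockout and 134 ± 23.5 in wild type, and Gsn one of 77.2 ± 24.2 in knockout and 91.6 ± 47.5 in wild type. The order of neighbours was not fixed in every library. Tmsb4x was above Actb in 5 of 6 libraries, Tmsb10 above Pfn1 in 4, Pfn1 above Actg1 in 5, Actg1 above Coro1a in 4 and Cfl1 above Lcp1 in 5, while the other 4 neighbouring pairs kept their order in all 6. These levels placed the monomer-sequestering thymosins and beta-actin at the top and the disassembly factors Wdr1 and Gsn at the bottom.

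Beta-actin, the main cytoplasmic actin of most tissues, did not differ between genotypes beyond the spread of the libraries. Actb (ENSMUSG00000029580, chr5:142903115-142906754, minus strand) had 176598, 198309 and 220162 normalized counts in KO451, KO452 and KO457, against 414139, 171078 and 156303 in WT453, WT454 and WT455. WT453 was 2.53 times the mean of the other wild-type libraries, and the 3 knockout libraries lay between it and them. The log2 fold change of Actb was -0.17 ± 0.41 (SE; 95% interval -1.13 to 0.79; limma, adjusted p = 0.912). Leaving WT453 out turned it to 0.27 ± 0.17 (interval -0.14 to 0.69, limma, adjusted p = 0.421). Actb is 1 of the genes often used to scale other measurements, and its highest value was 2.65 times its lowest over the 6 libraries.

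Gamma-actin, the other cytoplasmic actin, was also highest in WT453 and then KO457, with smaller steps. Actg1 (ENSMUSG00000062825, chr11:120345690-120348542, minus strand) had 41464, 46807 and 54264 normalized counts in the knockout libraries in the order of their numbers, against 66455, 44455 and 47093 in WT453, WT454 and WT455. WT453 was 1.45 times the mean of the other wild-type libraries, and the groups overlapped. The log2 fold change of Actg1 was -0.13 ± 0.25 (SE; interval -0.71 to 0.44; limma, adjusted p = 0.876), and 0.05 ± 0.16 without WT453. The interval covers levels of 0.61 to 1.36 times the wild-type level, so these libraries do not exclude a difference within those bounds.

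Profilin 1, which returns ATP-actin to growing filaments, had the narrowest interval of the 10 genes. Pfn1 (ENSMUSG00000018293, chr11:70651850-70654644, minus strand) had 28772, 34343 and 38073 normalized counts in knockout libraries, against 26367, 31504 and 31583 in wild-type libraries. Here WT453 was the lowest of the 6, unlike its place in the actins, and KO457 was the highest. Fitted by limma, the log2 fold change of Pfn1 was 0.17 ± 0.21 (SE; interval -0.32 to 0.66; limma, adjusted p = 0.783), and 0.09 ± 0.16 without WT453.

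The beta-thymosins, which bind actin monomers and keep them out of filaments, did not rank the libraries alike. Tmsb4x (ENSMUSG00000049775, chrX:167207093-167209315, minus strand), the major monomer-sequestering peptide of blood cells, had 99753, 112605 and 129877 normalized counts in knockout libraries, against 158921, 94435 and 99206 in wild-type libraries. Its libraries were ordered as for Actb at the top, WT453 and then KO457, and the log2 fold change was -0.01 ± 0.29 (SE; interval -0.68 to 0.66; limma, adjusted p = 0.997). Without WT453 it was 0.23 ± 0.17, and all 3 knockout libraries then lay above both wild-type libraries, although KO451 and WT455 were nearly level. Tmsb10 (ENSMUSG00000079523, chr6:72957347-72958748, minus strand) had 22024, 36695 and 29517 normalized counts in knockout libraries, against 34537, 44485 and 39899 in wild-type libraries. The groups overlapped through KO452, which was above WT453. The log2 fold change of Tmsb10 was -0.45 ± 0.25 (SE; interval -1.05 to 0.14; limma, adjusted p = 0.535), and -0.55 ± 0.23 without WT453, with all knockout libraries then below both wild-type libraries. KO451 was the lowest library, and leaving it out gave -0.26.

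**Figure D2:**
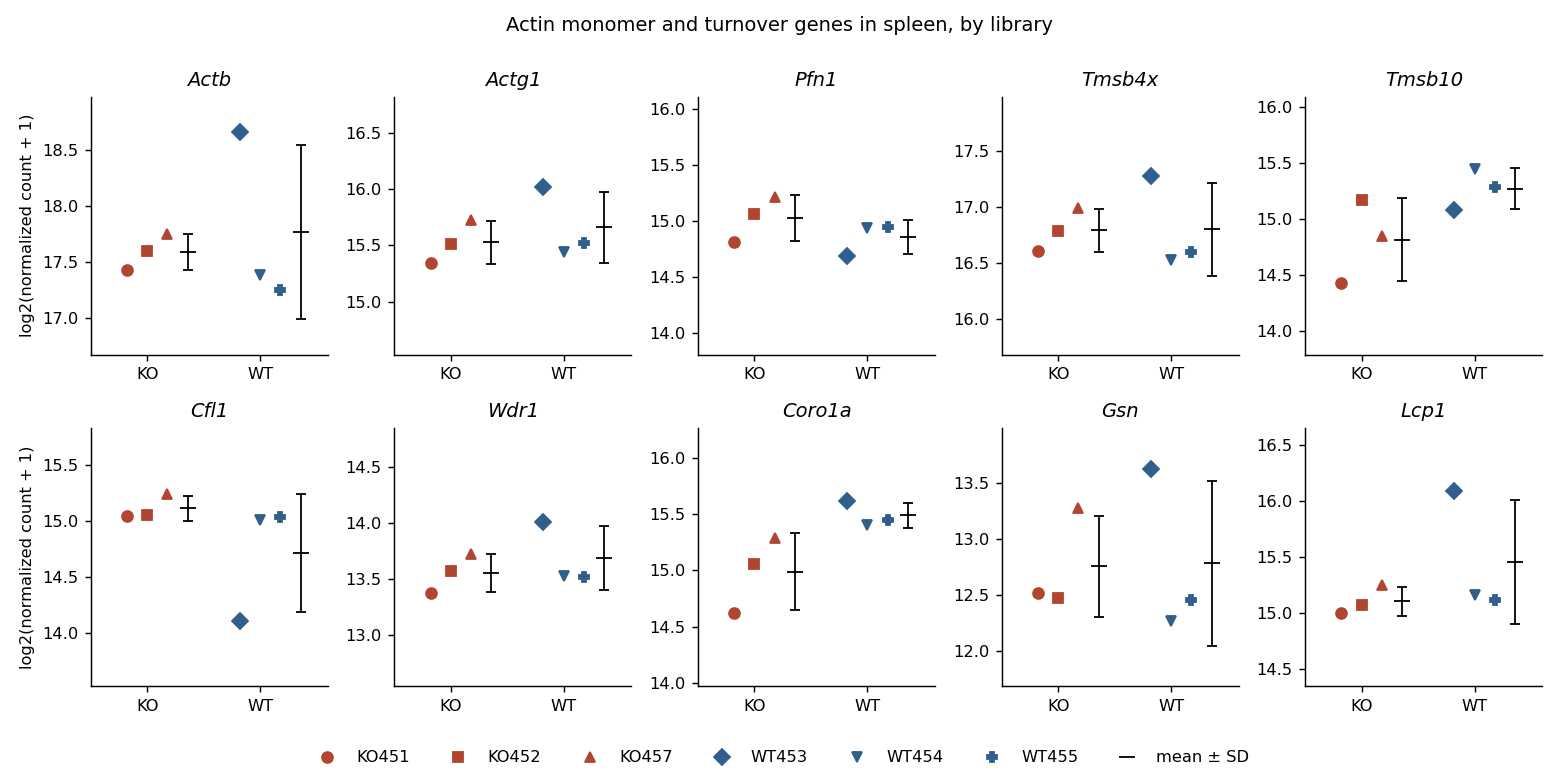
Log2(normalized count + 1) of the 10 genes in each library, knockout (left of each panel) and wild type (right), with the mean and SD of each group (n = 3). Each panel spans the same number of log2 units, and WT453 (diamond) is the highest library in 7 panels and the lowest in 2, Pfn1 and Cfl1.

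Cofilin 1, which severs ageing filaments, was 1 of 2 genes among the 10 whose groups did not overlap. Cfl1 (ENSMUSG00000056201, chr19:5490455-5495201, plus strand) had 33786, 34037 and 38836 normalized counts in knockout libraries, against 17731, 33029 and 33666 in wild-type libraries. All 3 knockout libraries were above all 3 wild-type libraries, but KO451 and WT455 were nearly level, and most of the difference between the means came with WT453, at 0.53 times the mean of the other wild-type libraries. Its log2 fold change was 0.39 ± 0.29 (SE; interval -0.29 to 1.08; limma, adjusted p = 0.646), and 0.09 ± 0.14 without WT453. Groups that do not overlap were found in 19.5% of all tested genes, with knockout above in 9.54% and below in 9.94%, and 2 of 10, 1 in each direction, is near that background. The gene model of Snx32 overlaps Cfl1 on the other strand, and the strand setting of the counting is not stated.

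Coronin 1A, the coronin of leukocytes, which is needed for the survival of naive T cells, was the other. Coro1a (ENSMUSG00000030707, chr7:126699773-126707787, minus strand) had 25152, 34085 and 40113 normalized counts in knockout libraries, against 50332, 43448 and 44698 in wild-type libraries. Every knockout library was below every wild-type library, and KO451 was the lowest. The log2 fold change of Coro1a was -0.50 ± 0.24 (SE; interval -1.06 to 0.06; limma, adjusted p = 0.496), which did not pass the test. It was -0.44 ± 0.22 without WT453 and -0.32 without KO451. The authors' deposited table lists Coro1a with a p-value of 0.0475 and an FDR of 0.348. Markers of leukocytes in general (Ptprc, Cd53, Laptm5, Arhgdib, Rac2 and Vav1) were also lower in every knockout library when summed. Their sums came to 122037, 145926 and 160254 normalized counts in KO451, KO452 and KO457, against 188659, 169432 and 161227 in WT453, WT454 and WT455. KO457 and WT455 were thus nearly level. Taken singly, 5 of the 6 had a fitted fold change below 0, and only Vav1 had groups that did not overlap. The part of these markers in the Coro1a values was not tested. The fitted fold changes of all 7 T cell markers and all 6 B cell markers were also below 0, with medians of -0.50 and -0.55, or -0.95 and -1.11 without WT453, 0 of them past limma's adjusted threshold, and their part was not tested either. The end of Coro1a overlaps the end of Bola2 on the other strand.

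Wdr1, also called AIP1, which speeds the disassembly of cofilin-bound filaments, had a fold change close to 0 beside its error. Wdr1 (ENSMUSG00000005103, chr5:38526813-38563221, minus strand) had 10658, 12177 and 13503 normalized counts in knockout libraries, against 16547, 11820 and 11713 in wild-type libraries. WT453 was the highest, and the knockout values spanned those of the other wild-type libraries. For Wdr1 the log2 fold change was -0.13 ± 0.22 (SE; interval -0.64 to 0.39; limma, adjusted p = 0.865), and 0.04 ± 0.15 without WT453.

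Gelsolin, a calcium-activated protein that severs filaments and caps their growing ends, was the lowest and among the most variable of the 10 genes. Gsn (ENSMUSG00000026879, chr2:35256380-35307892, plus strand) had 5877, 5712 and 9947 normalized counts in KO451, KO452 and KO457, against 12676, 4950 and 5635 in WT453, WT454 and WT455. WT453 and KO457, the libraries with the highest sums of neutrophil markers, were also the highest here, and the other 4 lay within 4950 and 5877. The same libraries were the highest for Actb, Actg1, Tmsb4x, Wdr1 and Lcp1, and the part of neutrophil markers in these values was not tested. For Gsn the log2 fold change was -0.03 ± 0.40 (SE; interval -0.98 to 0.92; limma, adjusted p = 0.990). Without WT453 it was 0.39 ± 0.27 (interval -0.26 to 1.05), with all knockout libraries above both wild-type libraries. KO452 and WT455 were nearly level, however, and KO457 was far above the other knockout libraries.

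L-plastin, the filament-bundling protein of leukocytes, differed mainly through 1 library. Lcp1 (ENSMUSG00000021998, chr14:75131101-75230842, plus strand) had 32669, 34355 and 38948 normalized counts in knockout libraries, against 69835, 36722 and 35400 in wild-type libraries. WT453 was 1.94 times the mean of the other wild-type libraries, whose values lay inside the range of the knockout libraries. Its log2 fold change was -0.35 ± 0.30 (SE; interval -1.07 to 0.36; limma, adjusted p = 0.706), and -0.03 ± 0.14 without WT453.

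Across the 10 genes the fitted direction depended on WT453. With all 6 libraries 8 of the 10 fold changes were below 0 and 2 above, and without WT453 3 were below and 7 above, so that 5 changed sign: Actb, Actg1, Tmsb4x, Wdr1 and Gsn. The median over the 10 genes was -0.13 with WT453 and 0.07 without it, beside -0.03 and -0.02 over all tested genes. Without WT453 the groups did not overlap in 6 of the 10 genes, 4 higher and 2 lower in knockout, where the share among all tested genes was 41.1%, with 19.5% higher and 21.6% lower. Again 0 of the 10 passed limma's adjusted p of 0.05 without WT453, with 0.00923% of genes called and 19.2% at an unadjusted p under 0.05, and the lowest adjusted p among them was 0.270, for Tmsb10. Tmsb10 and Coro1a kept a negative and Pfn1 and Cfl1 a positive fold change in every setting tried, as did Lcp1 a negative one, all short of the threshold. Among knockout libraries KO457 was the highest in 9 of the 10 genes and KO451 the lowest in 9 of the 10, the exceptions being Tmsb10 and Gsn.

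**Figure D3:**
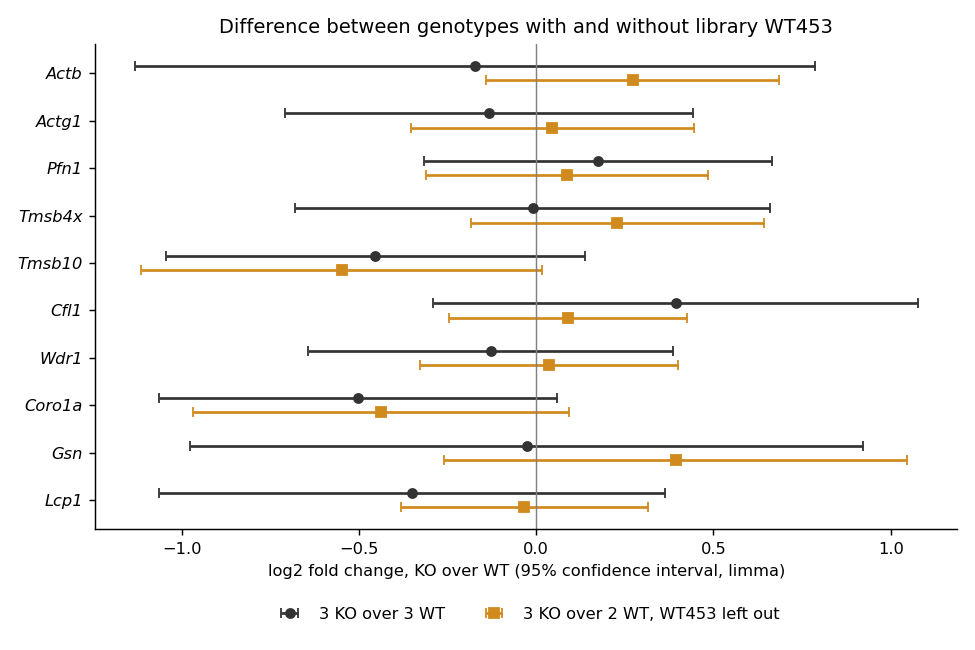
Log2 fold change of each gene, knockout over wild type, with 95% confidence intervals from limma, for all 6 libraries (circles) and with WT453 left out (squares). Every interval spans 0, and the points of 5 genes lie on opposite sides of 0 with and without WT453.

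Ratios within a library do not depend on how libraries are scaled, and were taken for 3 functional pairs. The ratio of Actb to Actg1 counts was 4.26, 4.24 and 4.06 in knockout libraries, against 6.23, 3.85 and 3.32 in wild-type libraries. Knockout libraries thus lay close together between WT453 and the other wild-type libraries, and the difference of the mean log2 ratios was -0.04 (exact two-sided permutation p = 1). Without WT453 it turned to 0.23 (exact p = 0.2). The ratio of Tmsb4x to Tmsb10 counts was 4.53, 3.07 and 4.40 in knockout libraries, against 4.60, 2.12 and 2.49 in wild-type libraries. Every knockout library was above WT454 and WT455 and below WT453, and the difference of the mean log2 ratios was 0.44 (exact two-sided permutation p = 0.4), or 0.78 without WT453 (exact p = 0.2). The ratio of Cfl1 to Pfn1 counts was 1.17, 0.991 and 1.02 in knockout libraries, against 0.672, 1.05 and 1.07 in wild-type libraries. The 5 libraries other than WT453 were near 1, and the difference of the mean log2 ratios was 0.22 (exact two-sided permutation p = 0.6), or 0.0023 without WT453 (exact p = 1). With 3 libraries against 3 the smallest p this test can give is 0.1, and with 3 against 2 it is 0.2.

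The 10 genes together took 1.29%, 1.65% and 1.69% of reads in knockout libraries, against 2.61%, 1.65% and 1.59% in wild-type libraries. Actb alone took 0.477% to 0.606% of reads in knockout libraries, against 1.25% in WT453 and 0.546% and 0.491% in the other wild-type libraries, and WT453 stood clear of the rest in both shares. The mean share of the 10 genes was 1.54% ± 0.22 in knockout and 1.95% ± 0.58 in wild-type libraries (SD, n = 3 each; exact two-sided permutation p = 0.5). The difference was -0.408 percentage points with WT453 and -0.0765 without it, where the wild-type mean was 1.62% (exact permutation p = 1). After Benjamini-Hochberg adjustment over this share and the 3 ratios, the exact permutation p was 0.8 for the share and for the ratios of Tmsb4x to Tmsb10 and Cfl1 to Pfn1, and 1 for Actb to Actg1.

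**Figure D4:**
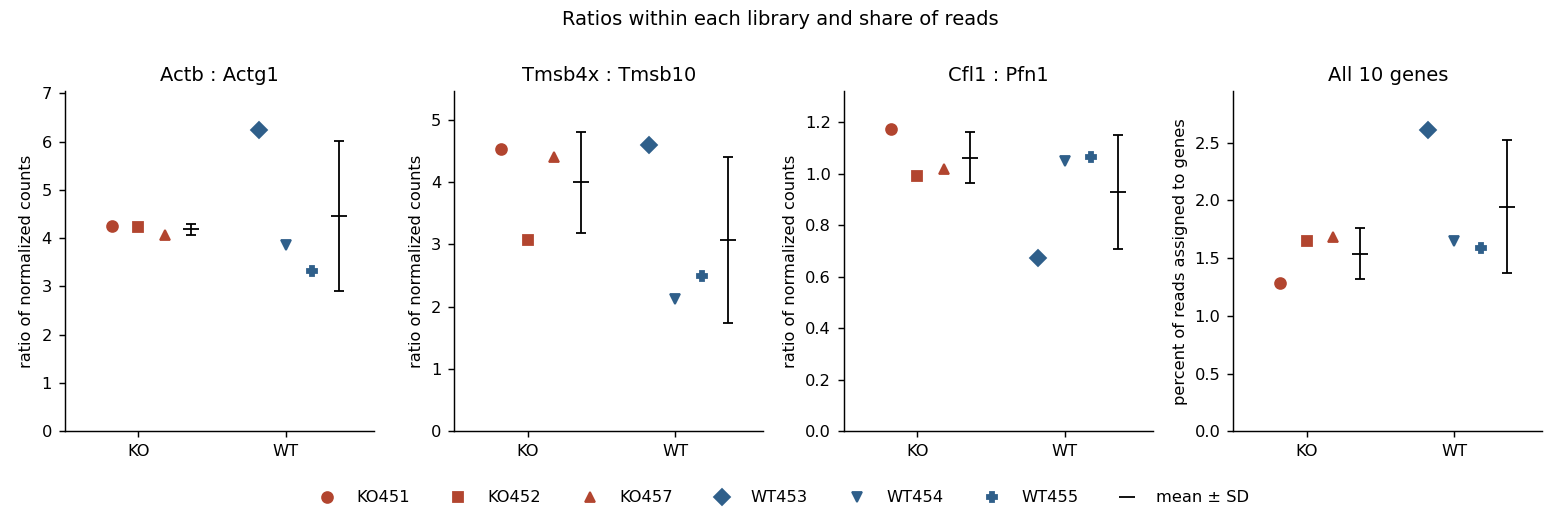
Ratios of normalized counts of 3 gene pairs within each library, and the percent of reads assigned to genes that the 10 genes took, in knockout (left) and wild-type (right) libraries with the mean and SD (n = 3). The ratio of Actb to Actg1 lies between 4.06 and 4.26 in the knockout libraries and between 3.32 and 6.23 in the wild-type ones.

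Promoter sequence was looked at for the binding motif of SRF, the CArG box, because free actin monomers control this factor's cofactors. RefSeq promoter windows of GRCm38, from 250 bases before to 50 bases after a transcript start, were matched by symbol for 9 of the 10 genes, all but Actb, in 15 windows. A CArG box, which reads alike on both strands, was found in 1 of the 15 windows, that of Actg1, and in 1.63% of all 32851 windows. GGGCGG, on either strand, was found in 14 of the 15 windows, in all 9 genes, and in 35.7% of all windows. Some genes have more than 1 window, and those of Tmsb10 overlap, so the 15 windows are not all separate sequences. TATAAA, on either strand, was found in 0 of the 15 and in 13.6% of all windows. Such matches are descriptions of sequence and not binding sites. The Actg1 window is shown for its CArG box, in capitals, which spans the bases 90 to 81 before the start (RefSeq, GRCm38, chr11:120348446-120348745, minus strand).
Actg1: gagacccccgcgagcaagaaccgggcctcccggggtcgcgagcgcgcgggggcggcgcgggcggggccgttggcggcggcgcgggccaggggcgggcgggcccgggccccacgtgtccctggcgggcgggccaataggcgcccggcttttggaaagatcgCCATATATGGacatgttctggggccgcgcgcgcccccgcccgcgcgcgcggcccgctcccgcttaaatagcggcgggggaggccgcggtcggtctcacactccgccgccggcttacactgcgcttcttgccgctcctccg

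Other genes of the actin cycle were taken from 11 lists by role, which hold 70 genes; 66 were in the table and 64 were tested. In limma 0 of the 64 passed an adjusted p of 0.05 in either direction, 41 had a fold change below 0 and 23 above, and the median was -0.11. An unadjusted p under 0.05 was found for 9 of the 64, beside 11.0% of all tested genes. From each list the 2 genes with the highest mean are named below, with log2 fold changes and standard errors from limma and, after a comma, the value without WT453.

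Actins of muscle were nearly absent, with Acta2 (-0.0036 ± 0.49, 0.36) at 48 to 123 normalized counts and Actg2 (-1.36 ± 0.58, -1.47) at 4 to 24 over the 6 libraries. Destrin, the cofilin relative Dstn, had 6975, 4997 and 13218 normalized counts in KO451, KO452 and KO457, against 24279, 2944 and 3614 in WT453, WT454 and WT455. Its libraries were ordered as for Gsn at the top, WT453 and then KO457, and the log2 fold change was 0.28 ± 0.80, or 1.24 without WT453. Muscle cofilin Cfl2 had one of -0.42 ± 0.34, or -0.64 without WT453. Of the kinases and phosphatases that switch cofilin off and on, Ssh2 (-0.43 ± 0.21, -0.57) and Ssh1 (0.02 ± 0.35, -0.31), both slingshot phosphatases that activate cofilin, were the most abundant. The other monomer binders Cap1 (-0.03 ± 0.19, -0.04), which works with cofilin and recharges monomers, and the twinfilin Twf2 (0.02 ± 0.22, 0.09) were close to level.

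Coro1b and Coro1c, coronins of most cell types, had log2 fold changes of 0.33 ± 0.19 and -0.08 ± 0.24, or 0.24 and 0.14 without WT453, beside -0.50 ± 0.24 and -0.44 for Coro1a. Of the 6 other coronins 4 had a fold change below 0 and 2 above, or 3 and 3 without WT453. The lowest, named after its values were seen, was Coro2a at -0.56 ± 0.24 (limma, adjusted p = 0.451), or -0.49 without WT453. The gelsolin relatives Flii (-0.08 ± 0.17, -0.12) and Capg (-0.29 ± 0.23, -0.23) and the capping protein subunits Capzb (-0.11 ± 0.20, -0.04) and Capza1 (0.17 ± 0.22, 0.03), which close the growing ends of filaments, lay within 0.3 of no change. The crosslinkers filamin A, Flna (-0.13 ± 0.26, 0.06), and alpha-actinin 1, Actn1 (0.33 ± 0.18, 0.27), had fold changes of opposite sign with WT453 and of the same sign without it. Tropomyosin 3, Tpm3, which coats filaments, had one of -0.43 ± 0.31 and -0.10 without WT453, and the coactosin-like protein Cotl1 one of -0.12 ± 0.22, or 0.02 without WT453. Of the genes named so far from these lists, Acta2, Ssh1, Coro1c, Flna and Cotl1 changed sign without WT453. None of these genes passed limma's adjusted threshold.

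SRF and its monomer-sensing cofactors were all lower in the fit, again without passing it. Mrtfa, listed in the table under its older symbol Mkl1, had 2683, 3352 and 3437 normalized counts in knockout libraries, against 5599, 4211 and 3873 in wild-type libraries. Its groups did not overlap, with a log2 fold change of -0.52 ± 0.22 (limma, adjusted p = 0.452) and -0.36 without WT453. Srf had 1146, 1525 and 1277 normalized counts in knockout libraries, against 1652, 1866 and 1488 in wild-type libraries, with KO452 above WT455 and a log2 fold change of -0.35 ± 0.21 (limma, adjusted p = 0.554), also -0.35 without WT453. Mrtfb, listed as Mkl2, had 506, 480 and 392 normalized counts in knockout libraries, against 359, 1079 and 510 in WT453, WT454 and WT455. Its groups overlapped, with WT453 the lowest library and WT454 the highest. The log2 fold change of Mrtfb was -0.35 ± 0.41 (limma, adjusted p = 0.774), or -0.70 without WT453. Among other genes known as SRF targets, the calponin Cnn2 had one of -0.34 ± 0.22, or -0.39 without WT453. Zyxin, Zyx, had one of -0.21 ± 0.36 and turned to 0.18 without WT453. Of the 5 tested genes of this list 2 had a fold change above 0 and 3 below, or 4 and 1 without WT453. The highest, named after its values were seen, was Vcl at 1.14 ± 0.48 (limma, adjusted p = 0.454), or 1.07 without WT453. Its groups overlapped. The median of the 5 was -0.13 with WT453 and 0.42 without it, both the value of Tagln, at 12 to 74 normalized counts.

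The authors' deposited table lists 3 of the 66 genes at an FDR under 0.05, near the 3.58% of all its genes, and these are named after their values were seen. Tmod1, the tropomodulin that caps the short filaments of the red cell membrane, had 3683, 683 and 831 normalized counts in knockout libraries, against 162, 131 and 288 in wild-type libraries. All 3 knockout libraries were above all wild-type libraries. The limma log2 fold change of Tmod1 was 2.80 ± 0.65 (adjusted p = 0.344), or 2.71 without WT453. Its FDR in the authors' deposited table was 3.57e-05. The red cell markers given above were highest in the same library, KO451, and their part in the Tmod1 values was not tested. The twinfilin Twf1, which binds monomers and filament ends, had 2528, 2050 and 1997 normalized counts in knockout libraries, against 1203, 1435 and 1539 in wild-type libraries, with a limma log2 fold change of 0.65 ± 0.20 (adjusted p = 0.356; 0.55 without WT453) and an FDR of 0.0335 in the authors' deposited table. Advillin, Avil, had 2.14, 0 and 0 normalized counts in knockout libraries, against 25.8, 22.0 and 9.35 in wild-type libraries, and an FDR of 0.0170 in the authors' deposited table.

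**Figure D5:**
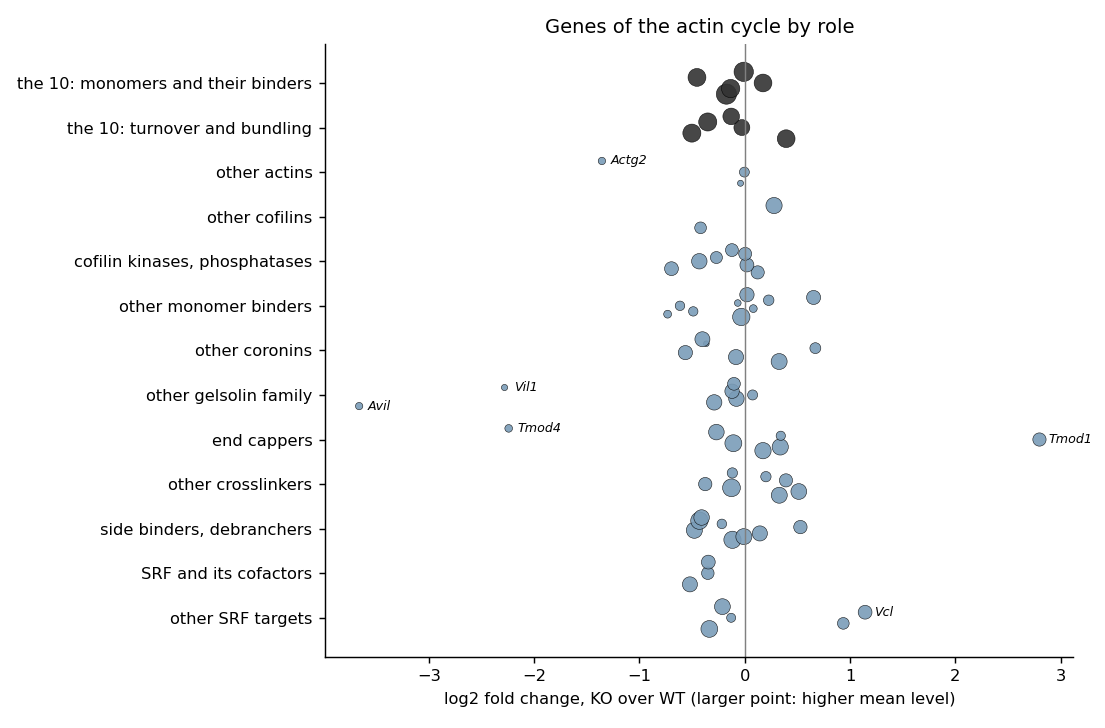
Limma log2 fold changes, knockout over wild type, of the 10 genes (dark, first 2 rows) and of the other actin-cycle genes by role, with larger points for higher mean levels and genes beyond 1 log2 unit named. The 10 genes lie between -0.50 and 0.39. The fitted values of Vil1, Avil, Tmod4 and Actg2 rest on few reads, with Vil1 at 0 reads in every knockout library. Tmod4 had 2.08 to 4.29 normalized counts in knockout libraries and 8.16 to 47.4 in wild-type libraries.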

How the data were processed

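Spleen RNA was sequenced in 3 knockout and 3 wild-type libraries. The authors deposited 1 table with log2 values per library, group means, a log2 fold change and a p-value with its FDR. Per the submitters' processing notes, the tools were STAR 2.5.3a, DESeq, StringTie 1.3.1c and FastQC 0.11.5, on build GRCm38, with no roles stated. The sources used here do not state the annotation, the filters or the strand setting. Each deposited log2 value is log2(read count divided by a size factor, plus 1), read from the values: 100% were whole multiples of 1 read (tolerance 0.001). The deposited p-value comes from a test not stated beyond the name DESeq. Column names of the knockout libraries carry an added suffix whose meaning is not stated, so any separate handling it marks and genotype cannot be told apart.

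Limma 3.58.1 (R 4.3.3) with an intensity trend was fitted to the deposited log2 values of genes with a mean normalized count of at least 1 (22071 kept, 4381 left out), and p-values were adjusted by Benjamini-Hochberg over all of them. On this scale fold changes of low genes are understated. The script was tested on simulated counts with the same dispersion for every gene and no outlying library. That does not show how the test performs on these libraries, where WT453 stood apart. Ratios and shares were compared with exact permutation tests (scipy 1.17.1). Gene positions and transcripts came from GENCODE M21 (GRCm38), in which 26404 of 26452 identifiers were found. In each list of other actin-cycle genes the 2 with the highest mean were named, and Was. The members and lists were chosen with earlier results of these data known. Alternatives were a pseudocount of 0.1, other filters, other normalizations, voom and leaving out each library. A gene of the list set beside Actb is not reported here.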

Additional observations from a re-analysis of the deposited data

How the results depend on the processing

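Over 13 alternative settings 0 of the 10 genes passed an adjusted p of 0.05 by limma, and the lowest adjusted p was 0.154, for Tmsb10 in voom with quality weights. An unadjusted p under 0.05 was found for 1 of the 10 with quantile normalization (11.1% of all genes), 2 in voom with quality weights (22.6%) and 1 without KO457 (7.29%), near those shares. Directions changed in 13 of 130 gene and setting combinations, all in Actb, Actg1, Tmsb4x, Wdr1 and Gsn. In voom with quality weights the log2 fold changes were 0.26 for Actb, 0.053 for Actg1, 0.23 for Tmsb4x, 0.047 for Wdr1 and 0.41 for Gsn. When single libraries were left out, they ranged from -0.43 to 0.27 for Actb, -0.24 to 0.046 for Actg1, -0.15 to 0.23 for Tmsb4x, -0.21 to 0.035 for Wdr1 and -0.29 to 0.39 for Gsn. Gsn was also above 0 without KO451 (0.09) and KO452 (0.11), and Tmsb4x without KO451 (0.08). The difference in the log2 ratio of Actb to Actg1 ranged from -0.23 to 0.23 when single libraries were left out, and was above 0 without WT453. Over all genes, 1 gene was called in voom, 4 in voom with quality weights and 0 to 2 when a library was left out. Quantile normalization gave a median of -0.41 over the 10 genes. The cause was not tested. No paired analysis was possible because the groups share no replicate numbers. The lowest value of any of the 10 genes was 4950 normalized counts, and the 95% intervals of their fold changes were 0.98 to 1.92 log2 units wide.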

Other observations

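Actb was set beside other genes often used to scale expression measurements, by the ratio of the highest to the lowest normalized count over the 6 libraries. The ratio was 2.65 for Actb. It was 3.42 for B2m, a light chain of MHC class I molecules, and 2.43 for the glycolytic enzyme Pgk1. Gapdh (1.89), Hprt (1.69), Sdha (1.67), Rplp0 (1.58), Tbp (1.55), Ppia (1.47) and Ywhaz (1.35) varied less. This order rested on WT453: without it the ratio was 1.41 for Actb and 1.36 for B2m, below Pgk1 (1.95), Gapdh (1.89) and Hprt (1.69). B2m had 68606, 93548 and 77940 normalized counts in knockout libraries, against 27316 in WT453 and 84234 and 83276 in the other wild-type libraries, so that it was lowest in the library where Actb was highest. Limma called 0 of the genes named here between the genotypes, and 0 had an unadjusted limma p under 0.05.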
